A study of Mus musculus with 7 samples.

Results

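The genes of the intracellular calcium release channels and of store-operated calcium entry were followed in splenic CD4+CD25+ cells of aged and young mice. The members were taken by gene symbol from the deposited table, and all 10 were found among its 25469 genes: Ryr1, Ryr2, Ryr3, Itpr1, Itpr2, Itpr3, Stim1, Stim2, Orai1 and Orai2. The cells came from wild-type (WT) mice, 3 biological replicates at an age of 18 months (aged Tregs) and 4 at 8 weeks (young Tregs). They were enriched from spleen with magnetic beads, and the paper's methods describe the mice as male C57BL/6. No treatment, transgene or surgery is given in the sample labels. Whether a replicate is 1 animal or a pool is not given in the sources used here, so p-values measure the spread between these samples.

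A calcium signal in a T cell starts when the antigen receptor activates phospholipase C and IP3 is made. IP3 opens the IP3 receptors (Itpr genes) of the endoplasmic reticulum, and the ryanodine receptors (Ryr genes), large channels best known from muscle and nerve, release calcium from the same store when calcium or cyclic ADP-ribose acts on them. STIM proteins sense that the store has emptied and open ORAI channels in the plasma membrane. The calcium that enters activates calcineurin, which sends NFAT factors to the nucleus, and both regulatory and conventional T cells depend on this route.

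Reads counted on genes numbered 10734234 to 11244060 in the aged and 12039894 to 13649310 in the young libraries, so each aged library was shallower than each young one. Haemoglobin genes held 1.24% to 13.1% of these reads. Mitochondrial genes held 10.7%, 5.08% and 5.53% in aged replicates 1 to 3 and 2.63% to 3.23% in the young libraries, so that this share did not overlap between the ages. Foxp3, Cd4 and Il2ra, the defining genes of the isolated cells, were at 394 CPM or more (reads of a gene relative to library size, scaled by the TMM method), 434 or more and 327 or more in every library. The 8 neutrophil marker genes summed to 5286, 1882 and 680.3 CPM in aged replicates 1 to 3, against 261 to 934 CPM in young Tregs. Of these genes, 4 were called higher (by the rule given below), against 9.8% of all genes tested.

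In aged Tregs, 2 of the 10 channel genes were lower and none was higher. Ryr2 fell almost to the limit of detection, and Orai2, which encodes a pore subunit of the plasma membrane, fell by 33.7%. The other 8 genes were not called. A gene was called when edgeR's quasi-likelihood test gave an adjusted p under 0.05 (Benjamini-Hochberg over the 13904 genes that passed the filter on low counts). All 10 members passed it. Of all genes tested, 6.94% were called lower and 9.8% higher in aged Tregs, 16.7% in all. The log2 fold changes of the members had a median of -0.20, 6 below 0 and 4 above, against a median of 0.02 over all genes tested. The members had been chosen with earlier results of these data known, so these counts are a description. In bulk RNA, fewer cells that express a gene and less of its RNA per cell cannot be told apart.

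**Figure D1:**
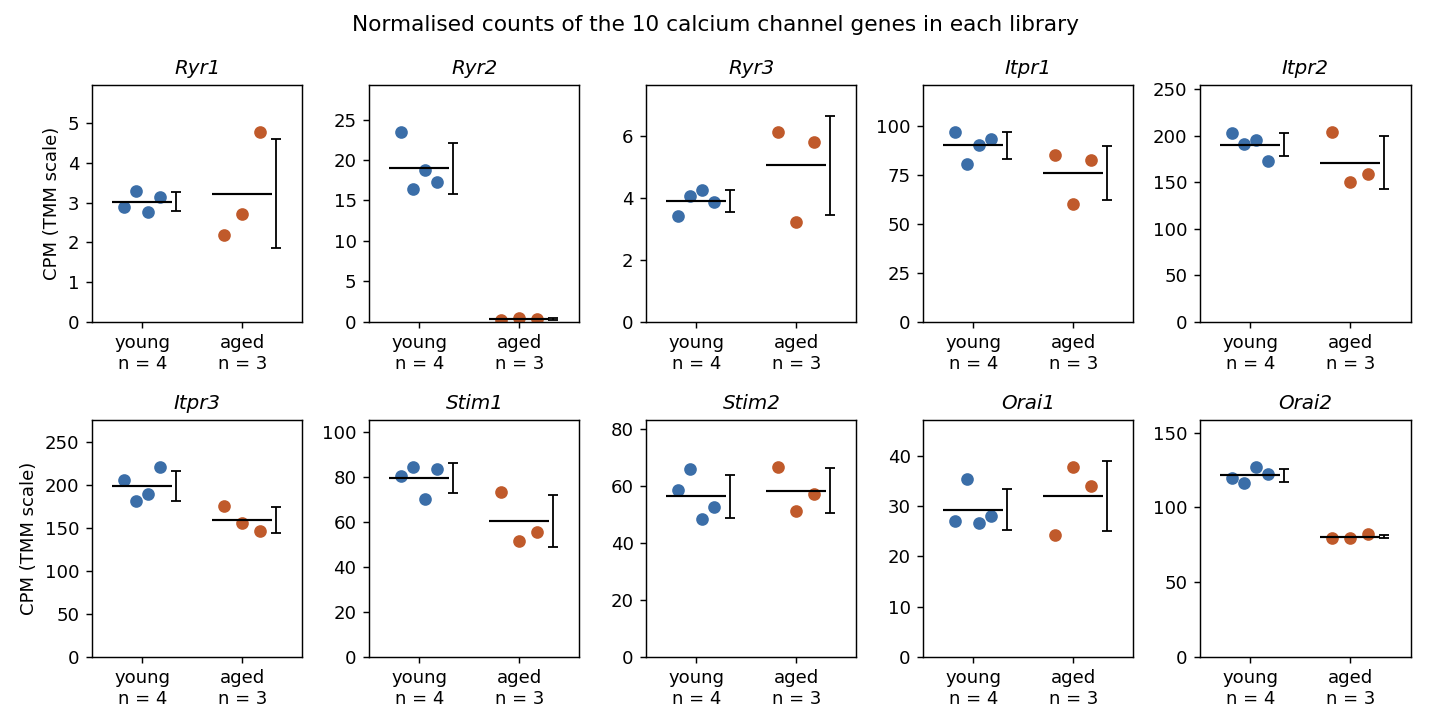
Normalised counts (CPM on the TMM scale, each vertical axis starting at 0) of the 10 channel genes, 1 point per library, with the mean as a line and the SD as a bar, for young (n = 4) and aged (n = 3) Tregs. The points of Ryr2, Itpr3 and Orai2 do not overlap between the ages (as in 29.9% of all genes tested), and those of the other 7 genes do.

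Ryr2 encodes the ryanodine receptor best known as the calcium release channel of heart muscle. It was read 268, 235, 237 and 241 times in young replicates 1 to 4, and 2, 5 and 4 times in aged replicates 1 to 3. In CPM these are 23.4, 16.5, 18.7 and 17.3 in young, and 0.175, 0.504 and 0.374 in aged Tregs. Every aged value lay far below every young one, and aged replicate 1 was under the detection limit of 3 counts. The means were 18.97 ± 3.11 CPM (SD, n = 4) for young and 0.351 ± 0.166 CPM (SD, n = 3) for aged Tregs. On the log2 scale Ryr2 differed by -5.74 (standard error 0.303, 95% confidence interval -6.43 to -5.05, adjusted p = 0.000102 by edgeR). This was the 3rd lowest log2 fold change of the 13904 genes tested. Because the aged counts are so low, the ratio was also taken from the summed counts. The sum of each age was divided by its summed library sizes on the TMM scale. With 981 reads in young and 11 in aged Tregs, Ryr2 was 54.6 times as abundant in young Tregs, with an exact 95% interval of 30.4 to 109.8 that covers counting error only. Without each library in turn, the log2 fold change stayed between -6.07 and -5.41 and was called in all 7 fits.

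Ryr1, the ryanodine receptor of skeletal muscle, was read 25 to 51 times in a library. Its levels were 2.88, 3.29, 2.76 and 3.15 CPM in young Tregs, and 2.18, 2.72 and 4.77 CPM in aged Tregs. Aged values spread around the young ones, with 1 above and 2 below all of them. The log2 fold change was 0.09 (95% confidence interval -0.57 to 0.75, adjusted p = 0.867 by edgeR), and it was -0.30 without aged replicate 3. Ryr3, a ryanodine receptor first known from brain, was at 3.41, 4.06, 4.26 and 3.87 CPM in young and 6.12, 3.22 and 5.80 CPM in aged Tregs. There, replicates 1 and 3 were above all young libraries and replicate 2 was below them. The log2 fold change of Ryr3 was 0.37 (95% confidence interval -0.20 to 0.95, adjusted p = 0.345 from edgeR), with 0.21 without aged replicate 1 and 0.61 without aged replicate 2 (adjusted p = 0.0877), and it was not called in any fit without 1 library. These intervals do not reach the size of the fall in Ryr2, and they leave room for a rise or a fall of each of these genes. Of the exon length of Ryr1 and Ryr3, 4.18% and 4.83% lie in exons of other genes (GENCODE M21), and none of that of Ryr2 does.

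To compare genes with each other, levels were set per length as RPKM, the TMM-scaled CPM per kilobase of the exons of all transcripts of a gene. In young Tregs, Ryr2 was at 0.659 ± 0.108 RPKM (SD, n = 4), above Ryr3 at 0.206 ± 0.0193 RPKM and Ryr1 at 0.138 ± 0.0111 RPKM, and the ranges of these genes did not overlap. In aged Tregs the order was another one. Ryr3 was at 0.266 ± 0.0837 RPKM (SD, n = 3) and Ryr1 at 0.148 ± 0.0626 RPKM, with overlapping ranges, and Ryr2 was the lowest at 0.0122 ± 0.00575 RPKM. Ryr2 thus held 72.3%, 61.0%, 64.9% and 63.3% of the family's summed RPKM in young replicates 1 to 4, and 1.42%, 5.61% and 2.42% in aged replicates 1 to 3. The summed RPKM of the family was 1.003 ± 0.0862 (SD, n = 4) in young and 0.426 ± 0.113 (SD, n = 3) in aged Tregs. These shares are given without a test.

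**Figure D2:**
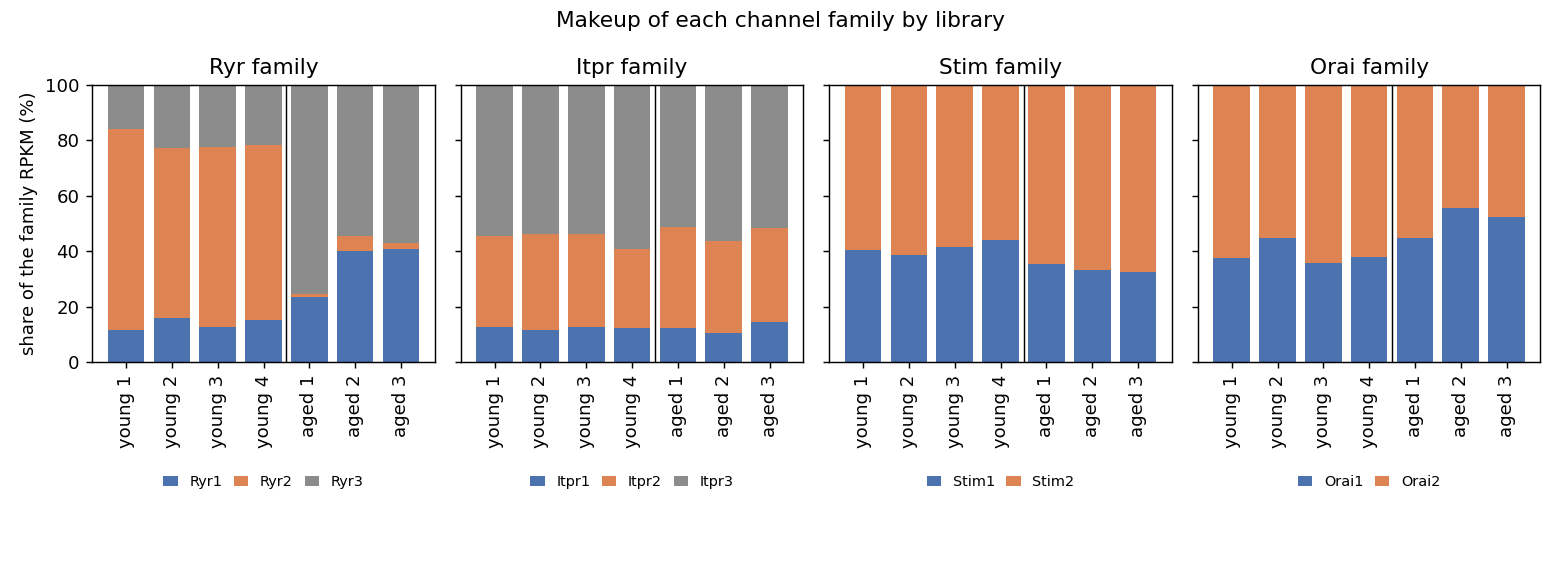
Share of each member in the summed RPKM of its family, in percent, 1 bar per library, young libraries left of the vertical line and aged ones right of it. Ryr2 fills 61.0% to 72.3% of the Ryr bars in young Tregs and 1.42% to 5.61% in aged Tregs, and the shares of the Itpr genes overlap between the ages.

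Ryr2 (ENSMUSG00000021313) lies on the minus strand of chromosome 13 of GRCm38, from 11553102 to 12106945, and its longest transcript has 105 exons. The bases just before the start are shown for Ryr2 and, as a member of the same family that was not called, for Ryr1. Both are RefSeq promoter windows on GRCm38.p6, written 5′ to 3′ in the direction of transcription, chr13:12106946-12107195 on the minus strand for Ryr2 and chr7:29125152-29125401 on the minus strand for Ryr1. The starts are those of RefSeq, and the last bases of the Ryr1 window lie inside the gene as GENCODE M21 places it. Capitals mark matches on either strand to 9 short motifs. The core of NFAT sites was searched as GGAAA, the AP-1 site as TGANTCA and the CRE half-site as TGACG. For the GC box the letters were GGGCGG, for the TATA box TATAAA and for forkhead factors TGTTTAC. RUNX sites were searched as TGTGGT, TCF/LEF sites as CTTTGA and the E-box as CACCTG.
Ryr2: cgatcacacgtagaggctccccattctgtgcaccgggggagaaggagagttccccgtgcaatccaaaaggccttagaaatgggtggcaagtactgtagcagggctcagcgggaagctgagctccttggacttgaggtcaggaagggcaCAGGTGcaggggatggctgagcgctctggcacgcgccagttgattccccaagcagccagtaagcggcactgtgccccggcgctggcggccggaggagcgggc
Ryr1: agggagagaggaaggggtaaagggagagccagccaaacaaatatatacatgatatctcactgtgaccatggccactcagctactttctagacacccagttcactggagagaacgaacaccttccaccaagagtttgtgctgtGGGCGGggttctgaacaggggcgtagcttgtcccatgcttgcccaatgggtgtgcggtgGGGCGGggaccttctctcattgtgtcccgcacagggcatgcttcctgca

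In these 250 bases Ryr2 held 1 E-box match, from -102 to -97 relative to the start, and no GC box. Its 2 GC boxes lay in the first 50 bases after the start. Ryr1 held 2 GC boxes and no E-box. Over windows of 250 bases before and 50 after the start, a GC box was found in 35.7% and an E-box in 20.2% of 32851 RefSeq promoters. The 250 bases before the start had 14 CpG dinucleotides in Ryr2 and 6 in Ryr1, against a median of 6 over all promoters. A match is a description of the letters only.

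The 3 IP3 receptor genes, whose products release calcium from the store when IP3 binds, were read far more often, at 597 to 3077 reads in a library. Itpr3 was at 204.9, 180.6, 189.1 and 220.5 CPM in young replicates 1 to 4, and at 174.9, 155.5 and 146.3 CPM in aged replicates 1 to 3. All aged values were below all young ones. Its log2 fold change was -0.32 (standard error 0.111, 95% confidence interval -0.58 to -0.07), and edgeR gave an adjusted p of 0.0806, so it was not called. Without aged replicate 1 it was called, at -0.40 (adjusted p = 0.0414), in a fit that called 21.5% of all genes, 10.2% as lower. DESeq2 also called it (adjusted p = 0.0156) among 27.4% of all genes.

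Itpr1 was at 96.7, 80.5, 90.2 and 93.1 CPM in young and at 85.2, 60.1 and 82.6 CPM in aged Tregs. Aged replicate 2 was the lowest of the 7 and the ages overlapped. The log2 fold change of Itpr1 was -0.25 (95% confidence interval -0.55 to 0.06, adjusted p = 0.246 from edgeR). Itpr2 was at 203.3, 191.2, 195.6 and 173.1 CPM in young and at 203.9, 151.0 and 159.0 CPM in aged Tregs, and aged replicate 1 was level with the highest young library. That log2 fold change was -0.16 (95% confidence interval -0.44 to 0.13, adjusted p = 0.437 from edgeR). Without 1 library, Itpr2 lay between -0.30 (without aged replicate 1, adjusted p = 0.0709) and -0.07 (without aged replicate 2), and Itpr1 between -0.34 and -0.10 in the same 2 fits, and neither was called. The shares of the family overlapped between the ages. Per length, Itpr3 held 55.3% ± 2.73 (SD, n = 4) of the family's RPKM in young and 53.0% ± 2.72 (SD, n = 3) in aged Tregs, Itpr2 32.4% ± 2.79 and 34.6% ± 1.66, and Itpr1 12.3% ± 0.4 and 12.4% ± 1.83.

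STIM1 and STIM2 are the calcium sensors in the membrane of the store. Stim1 was at 80.2, 84.3, 69.9 and 83.6 CPM in young replicates 1 to 4, and at 73.3, 51.6 and 55.6 CPM in aged replicates 1 to 3. Aged replicate 1 lay within the young range, and the other 2 aged libraries were below it. The log2 fold change of Stim1 was -0.40 (standard error 0.137, 95% confidence interval -0.71 to -0.09, adjusted p = 0.079 by edgeR) and was not called. It was called without aged replicate 1, at -0.57 (adjusted p = 0.0113), and by DESeq2 (adjusted p = 0.0144). Aged replicate 1 is the library with the highest sum of neutrophil markers. It also had the highest mitochondrial share (10.7%) and, of the aged libraries, the lowest haemoglobin share (1.27%). The part of neutrophils and of these shares in the Stim1 and Itpr3 values was not tested.

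Stim2 was at 58.5, 66.0, 48.3 and 52.5 CPM in young and at 66.7, 51.1 and 57.4 CPM in aged Tregs, so that 2 aged libraries lay within the young range and aged replicate 1 just above it. Its log2 fold change was 0.05 (95% confidence interval -0.26 to 0.36, adjusted p = 0.83 from edgeR), and its sign changed with the normalization. Within the pair, Stim1 held 38.7% to 44.1% of the summed RPKM in the young and 32.4% to 35.2% in the aged libraries, so that these ranges were apart. Which of the pair had the higher level could not be settled, since Stim1 was at 7.67 RPKM in young Tregs with the exons of all transcripts as its length, and at 18.2 RPKM with its longest transcript, against 10.97 and 11.4 RPKM for Stim2.

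ORAI1 and ORAI2 are subunits of the calcium release-activated channel in the plasma membrane, with ORAI1 the main pore in T cells. Orai2 was at 119.8, 116.2, 127.1 and 122.6 CPM in young replicates 1 to 4, and at 79.8, 79.8 and 81.9 CPM in aged replicates 1 to 3. Both ages were tight and far apart. Means were 121.4 ± 4.599 CPM (SD, n = 4) for young and 80.5 ± 1.22 CPM (SD, n = 3) for aged Tregs, and Orai2 fell by 0.59 on the log2 scale (standard error 0.0797, 95% confidence interval -0.78 to -0.41, adjusted p = 0.00263 by edgeR). Orai2 was called in all 7 fits that left out 1 library, between -0.61 and -0.57. Its p-value was the 283rd smallest of all genes tested.

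Orai1 was at 27.1, 35.5, 26.7 and 28.2 CPM in young and at 24.3, 37.9 and 34.2 CPM in aged Tregs. The aged libraries lay on both sides of the young ones, and young replicate 2 stood above the other young libraries. The log2 fold change was 0.13 (95% confidence interval -0.27 to 0.52, adjusted p = 0.658 from edgeR), and it was -0.01 without aged replicate 2. Orai3, the remaining gene of the family, was at 24.2 ± 2.20 CPM (SD, n = 4) in young and 24.5 ± 4.80 CPM (SD, n = 3) in aged Tregs, with a fold change of 0.02 in log2 (adjusted p = 0.958 from edgeR) whose sign changed between settings. Per length, Orai2 was at 20.0 ± 0.757 RPKM (SD, n = 4) in young Tregs, above Orai1 at 12.8 ± 1.81 RPKM with no overlap. In aged Tregs, Orai2 was at 13.2 ± 0.201 RPKM (SD, n = 3) and Orai1 at 14.0 ± 3.06 RPKM, with overlapping ranges. With the longest transcript as the length, Orai2 kept the higher mean in aged Tregs, at 20.2 against 17.1 RPKM.

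**Figure D3:**
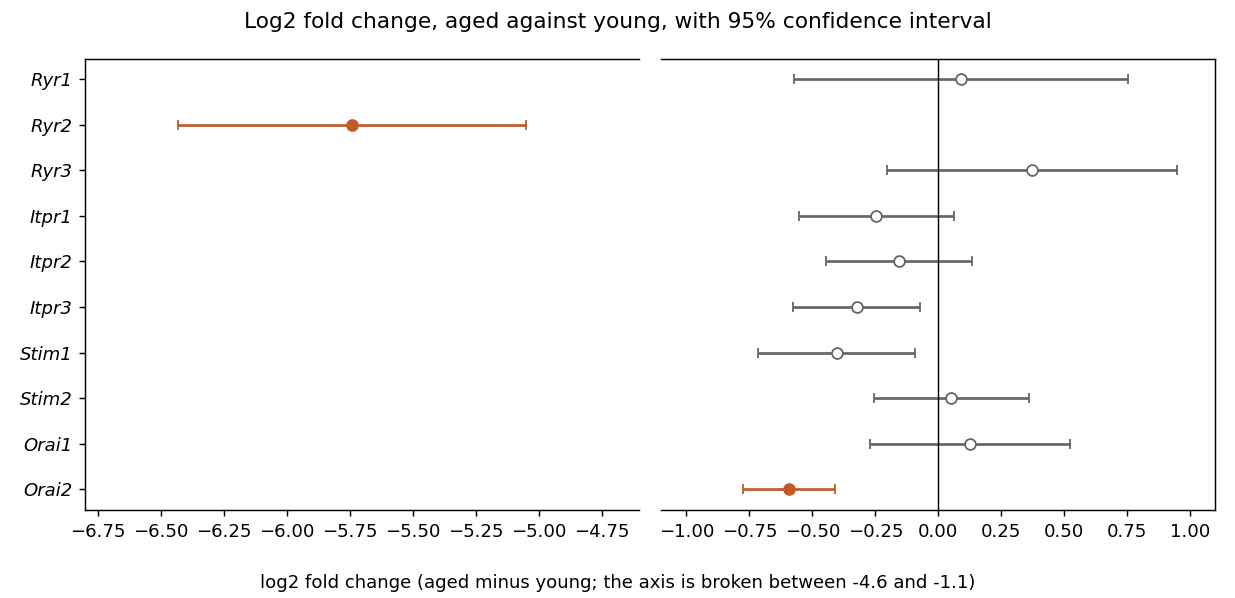
Log2 fold changes (aged minus young) of the 10 channel genes with 95% confidence intervals from edgeR, on an axis that is broken between the left and right panels but has the same scale in both. Filled points are genes called at an adjusted p under 0.05, Ryr2 at -5.74 and Orai2 at -0.59, and open points are the 8 genes that were not called.

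Orai2 (ENSMUSG00000039747) lies on the minus strand of chromosome 5 of GRCm38 from 136147459 to 136170713, and Orai1 (ENSMUSG00000049686) on the plus strand of the same chromosome from 123015074 to 123030456. No exon base of Orai2 and 0.305% of those of Orai1 lie in exons of another gene. The 250 bases before each RefSeq start are shown for this pair, of which only Orai2 was called. They are chr5:136170657-136170906 on the minus strand for Orai2 and chr5:123014824-123015073 on the plus strand for Orai1 (RefSeq, GRCm38.p6), with capitals for the same 9 motifs. The last of the bases printed for Orai2 lie inside the gene as placed above, since GENCODE M21 sets its start further upstream.
Orai2: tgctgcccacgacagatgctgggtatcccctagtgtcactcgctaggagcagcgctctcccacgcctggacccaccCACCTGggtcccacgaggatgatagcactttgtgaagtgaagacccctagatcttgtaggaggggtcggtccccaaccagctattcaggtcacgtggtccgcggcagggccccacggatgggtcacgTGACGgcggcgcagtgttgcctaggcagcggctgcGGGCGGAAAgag
Orai1: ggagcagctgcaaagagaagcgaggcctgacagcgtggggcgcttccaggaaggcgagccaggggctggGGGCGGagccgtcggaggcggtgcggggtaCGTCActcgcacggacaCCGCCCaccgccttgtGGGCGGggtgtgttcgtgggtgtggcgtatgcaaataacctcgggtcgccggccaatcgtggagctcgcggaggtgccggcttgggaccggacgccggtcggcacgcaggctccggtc

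Both held a CRE half-site, which was found in 17.8% of all promoters over the 250 bases before the start, and both held a GC box. Orai2 also held an E-box and, ending 4 bases before the start, an NFAT core that overlaps its GC box. Among the 8 members with a window in the RefSeq table, Orai2 was the only one with an NFAT core in the 300 bases. Over the same length this motif was found in 61.3% of all promoters. All 8 held a GC box in the 300 bases. Matches to AP-1, the TATA box, forkhead, RUNX and TCF/LEF letters were not in any of these 8 windows. Their shares over all promoters were 7.81%, 13.6%, 3.65%, 16.8% and 16.0%, in that order.

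Over the whole set, the order of levels per length in young Tregs was Itpr3 at 22.0 RPKM, Orai2 at 20.0, Itpr2 at 12.9, Orai1 at 12.8, Stim2 at 10.97, Stim1 at 7.67, Itpr1 at 4.92, Ryr2 at 0.659, Ryr3 at 0.206 and Ryr1 at 0.138. Of neighbours in this order, Itpr3 and Orai2, Itpr2 and Orai1, and Orai1 and Stim2 had overlapping ranges over the 4 libraries. In aged Tregs, Itpr3 again came first on this length, at 17.6 RPKM, and Orai1, Orai2, Itpr2 and Stim2 followed between 14.0 and 11.4 RPKM. Neighbours among these 5 genes overlapped, and Stim2 was apart from Stim1, the next below. With the longest transcript as the length, 6 members changed their place in the young and 5 in the aged order, and Orai2 came first at both ages, at 30.4 against 22.1 RPKM for Itpr3 in young and 20.2 against 17.7 RPKM in aged Tregs. The ryanodine receptor genes stayed below the other 7 members at both ages under either length.

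In 3 of the 10 genes, Ryr2, Itpr3 and Orai2, all aged values were below all young ones, which was so for 14.4% of all genes tested. None had all aged values above the young ones, against 15.5% of all genes. In either direction the ages did not overlap in 29.9% of all genes.

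The genes whose patterns over the 7 libraries were most like that of Ryr2 were Drc1, which encodes a subunit of the dynein regulatory complex of cilia, Sox4, a transcription factor gene, and Cd209a, a lectin receptor gene of dendritic cells. Likeness was the root mean square difference of log2 CPM after each gene was centred on its mean, over 12146 genes whose log2 CPM averaged at least 1. It was 0.435 for Drc1, 1.03 for Sox4 and 1.13 for Cd209a, on the log2 scale. Drc1 had 13.4 ± 2.19 CPM (SD, n = 4) as its young mean and 0.311 ± 0.0352 CPM (SD, n = 3) as its aged one. For Orai2 the closest genes were Mut, which encodes methylmalonyl-CoA mutase, at 0.0516, Zfp131, a zinc finger gene, at 0.0526, and Stk38, a kinase gene, at 0.0588.

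Some markers of Tregs and of other cells and states differed between the ages in these isolates. Each count of called markers is to be read beside all genes tested, of which 6.94% were called lower and 9.8% higher. Of 8 Treg or T cell markers, Cd3e, for a chain of the T cell receptor complex, was called higher (0.46, adjusted p = 0.0301 by edgeR) and Lrrc32, for the TGF-beta docking receptor GARP, lower (-1.02, adjusted p = 0.0083), both named after their values were seen. Il2ra was at 579 ± 94.3 CPM (SD, n = 4) in young and 380.3 ± 87.0 CPM (SD, n = 3) in aged Tregs (-0.61, adjusted p = 0.0588 by edgeR). Cd4 was at -0.30 (adjusted p = 0.117), with all aged values below the young ones, and Foxp3 at 0.21 (adjusted p = 0.409). The rest of this list lay above 0 and was not called by edgeR. Ikzf2 was at 0.46 (adjusted p = 0.0942), with all aged values above the young ones. Ctla4 was at 0.86 (adjusted p = 0.103) and Tnfrsf18 at 0.49 (adjusted p = 0.144), and their ages overlapped. All 8 naive T cell markers (such as Ccr7 and Lef1) were called lower in aged Tregs, and their summed level was 970 to 1255 CPM in the aged against 2099 to 2264 CPM in the young libraries. Of 8 effector memory markers, 4 were called higher, with sums of 707 to 816 CPM in aged and 384 to 497 CPM in young Tregs. Of 8 dendritic cell markers, 4 were called lower and 1 higher, with sums of 47.6 to 67.1 CPM in aged and 78.9 to 98.8 CPM in young Tregs. Sums of the 8 B cell markers overlapped, at 890 to 1671 and 1359 to 2119 CPM. Those of the 6 plasma cell markers also overlapped, at 749 to 1304 CPM in aged and 325 to 2003 CPM in young Tregs, with 1 called higher. No CD8 T cell or erythroid marker was called, and the sums of both lists overlapped between the ages. NK cell markers summed to 19.8 to 33.4 CPM in aged and 34.3 to 60.3 CPM in young Tregs, with 1 of 5 called lower, and platelet markers to 23.9 to 44.5 CPM and 11.1 to 19.1 CPM, with 2 of 6 called higher. Of 10 monocyte or macrophage markers, 3 were called lower and 1 higher, with sums of 416 to 569 CPM in aged and 528 to 619 CPM in young Tregs. The 9 stroma or muscle markers summed to 214 to 244 CPM in aged and 199 to 221 CPM in young Tregs. Of the 8 of these that were tested, Ttn and Acta2 were called higher and Pecam1 and Tnnt2 lower, and these 4 are named after their values were seen. The part of these cells, and of the mitochondrial share, in the changes of Ryr2 and Orai2 was not tested.

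Other genes of the calcium route were described from 9 lists set by role. Of 165 genes tested, 15 were called higher and 14 lower in aged Tregs, 17.6% in all, which is close to the 16.7% of all genes tested. Counts per list are to be read beside the share of all genes called by the same fit. That share was 21.5%, 12.2% and 8.9% without aged replicate 1, 2 and 3, and 9.58%, 14.5%, 9.28% and 9.03% without young replicate 1, 2, 3 and 4. With DESeq2 it was 27.4%. With GC and length trends removed, 2685 of 13862 genes were called, and limma voom called 2283 of 13904.

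Partners of store-operated entry held no called gene among 11 tested, with 3 at an unadjusted p under 0.05 in edgeR. Such p-values were common, since 4507 of all 13904 genes tested had an unadjusted p of 0.049 or less by edgeR. DESeq2 called 3 of them and limma voom 0, and 1 was called with GC and length trends removed. Without aged replicate 1, edgeR called 2 of the 11. Among 16 partners of ryanodine receptors, 2 were lower and 1 higher, and 1 was called without young replicate 1. Homer3, a scaffold gene, fell from 3.11 ± 0.383 to 1.34 ± 0.217 CPM (log2 fold change -1.21, adjusted p = 0.014 from edgeR), and Tmem38a, which encodes a potassium channel of the store, fell from 3.28 ± 0.682 to 1.71 ± 0.186 CPM (-0.94, adjusted p = 0.0396). Sepn1, a selenoprotein gene of the store membrane, rose from 5.44 ± 1.03 to 9.79 ± 0.946 CPM (0.85, adjusted p = 0.0207). Tmem38a kept its call in 2 of the 7 fits that left out 1 library, Sepn1 in 6 and Homer3 in all of them. Among more abundant partners that were not called were Fkbp1a, which encodes the small binding protein FKBP12, at 0.16 (adjusted p = 0.443), and Cd38, for an enzyme that makes cyclic ADP-ribose, at -0.00167 (adjusted p = 0.997).

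Of 28 genes of IP3 formation, breakdown and IP3 receptor partners, 3 were higher and 1 lower, and 2 were called without young replicate 1, 3 or 4, 6 without aged replicate 1 or young replicate 2, and 7 by DESeq2 or with GC and length trends removed. Plcd1, a phospholipase C gene, rose from 1.07 ± 0.197 to 3.88 ± 0.953 CPM (log2 fold change 1.85, adjusted p = 0.00422 from edgeR). Tespa1, whose product binds IP3 receptors in thymocytes, rose from 60.5 ± 5.995 to 97.6 ± 10.9 CPM (0.69, adjusted p = 0.00632). Lrmp, another gene of an IP3 receptor partner in the store membrane, fell from 212.4 ± 5.42 to 158.8 ± 14.2 CPM (-0.42, adjusted p = 0.0216). Plcb4 was higher by 0.41 (adjusted p = 0.0289) and kept its call in 2 of the 7 fits without 1 library, Lrmp in 4. Plcg1, the phospholipase C gene under the T cell receptor, was at 225.5 ± 18.8 CPM in young and 288.5 ± 18.5 CPM in aged Tregs (0.36, adjusted p = 0.0512) and was not called, although it was in 7 of 17 alternatives. Itpkb, for a kinase that converts IP3, was at 0.01 (adjusted p = 0.98).

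Among 10 pumps and exchangers, Atp2a3, which encodes the store pump SERCA3 of blood cells, was the only called gene. It was at 469.9, 419.7, 428.6 and 452.1 CPM in young and at 319.2, 341.1 and 345.9 CPM in aged Tregs, so that it fell by 0.40 on the log2 scale (adjusted p = 0.0289 from edgeR). The ages did not overlap, but the call held in 2 of the 7 fits without 1 library. Of this list 4 genes were called without aged replicate 1, and none without aged replicate 2 or 3 or young replicate 1, 3 or 4. Atp2a2, for SERCA2, was at -0.16 (adjusted p = 0.455), and at -0.34 without aged replicate 1 (adjusted p = 0.0338 by edgeR). The plasma membrane pump genes Atp2b1 and Atp2b4 were at 0.42 (adjusted p = 0.142) and 0.59 (adjusted p = 0.195). Of 12 buffers of the store, Pdia6, a chaperone gene, was called higher (0.32, adjusted p = 0.0416), in none of the 7 fits without 1 library. Of 14 genes listed under mitochondrial uptake, Micu3 (0.74, adjusted p = 0.026) and Efhd2 (0.43, adjusted p = 0.0346) were higher and Letm1 (-0.38, adjusted p = 0.0221) lower. A place on this list, as for Efhd2, does not show that a gene takes part in uptake. The uniporter gene Mcu was at 0.32 (adjusted p = 0.185). The calls of Micu3, Efhd2 and Letm1 held in 2, 2 and 3 of those fits. None of the 14 was called without aged replicate 2 or 3 or young replicate 3, and 1 without young replicate 1 or 4.

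Downstream of the channels, 1 of 19 calcineurin and NFAT genes was called, and 3 without aged replicate 1. Rcan3, for a regulator of calcineurin, was at 58.9 ± 4.47 CPM (SD, n = 4) in young Tregs and fell to 29.4 ± 3.62 CPM (SD, n = 3), by 1.0 on the log2 scale (adjusted p = 0.00147 by edgeR), in every fit without 1 library. Nfatc1 was at 0.11 (adjusted p = 0.508), Nfatc2 at -0.04 (adjusted p = 0.828), Ppp3ca, for the catalytic subunit of calcineurin, at -0.08 (adjusted p = 0.695), and Nfatc3 at -0.51 (adjusted p = 0.051). Nfatc3 was at 276 to 294 CPM in young and 162 to 253 CPM in aged Tregs, and was called in 6 of 17 alternatives, among them without aged replicate 1 (log2 fold change -0.72).

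Of 34 other calcium channels and ion partners, 5 were higher and 2 lower. These 7 calls became 3 without aged replicate 3, 4 without young replicate 3 and 12 by DESeq2. Trpm1, a TRP channel gene, fell from 11.02 ± 0.753 to 1.95 ± 0.379 CPM (log2 fold change -2.49, adjusted p = 0.000377 from edgeR), and Cacnb3, a subunit gene of voltage-gated channels, rose from 7.92 ± 2.57 to 31.8 ± 5.25 CPM (2.00, adjusted p = 0.00159). The lysosomal channel genes Mcoln1 and Mcoln3 went in opposite directions, at 0.37 (adjusted p = 0.019) and -0.83 (adjusted p = 0.0281), and held their calls in 4 and 3 of the 7 fits without 1 library. Of 21 genes listed as other kinases and sensors, 6 were lower and 3 higher, 42.9% in all against 16.7% of all genes, and 5 were called without aged replicate 3. Rasgrp1, an activator of Ras in T cells, fell from 305.1 ± 21.7 to 163.7 ± 21.7 CPM (-0.90, adjusted p = 0.00263), and Sorcs2, which is on this list but encodes a sorting receptor, neither a kinase nor a calcium sensor, fell by 2.09 on the log2 scale (adjusted p = 0.00114). S100a6 and S100a11, for calcium-binding proteins, rose by 1.14 (adjusted p = 0.00121) and 0.92 (adjusted p = 0.00121).

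**Figure D4:**
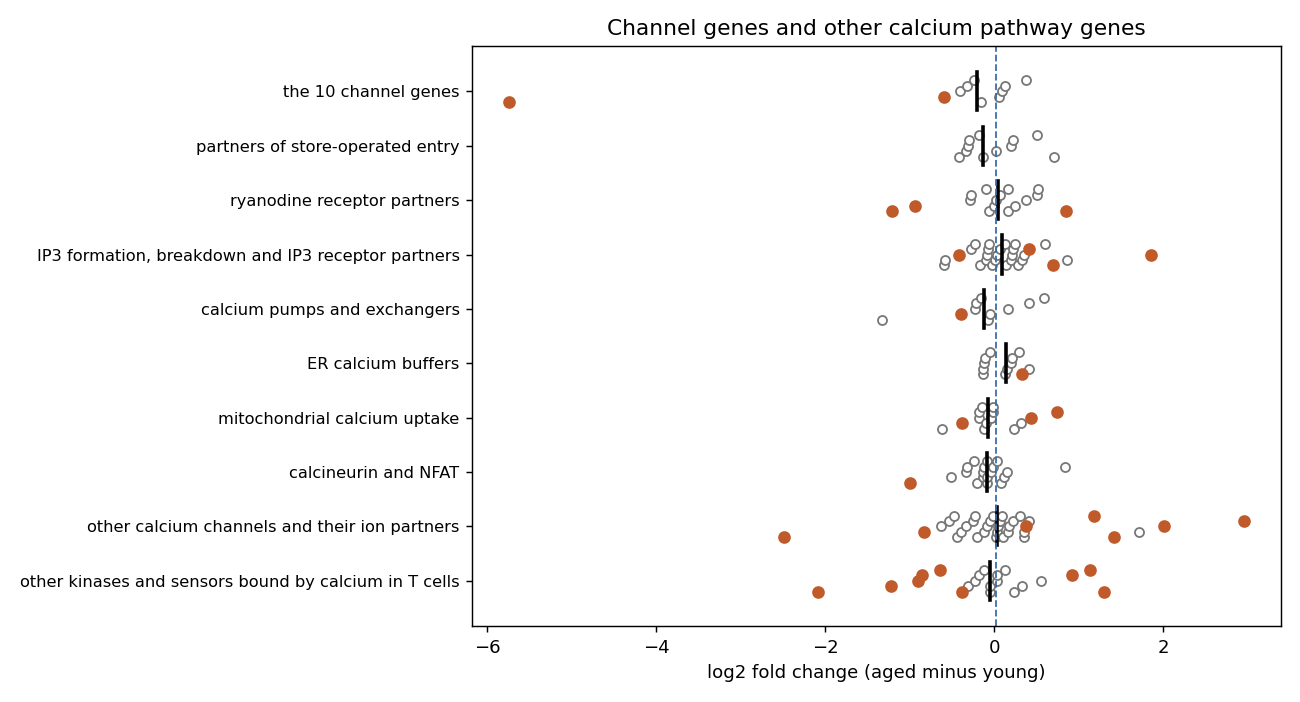
Log2 fold changes (aged minus young) of the 10 channel genes and of the genes tested in the 9 lists of other calcium genes, 1 point per gene, spread vertically within a list for legibility. Filled points were called at an adjusted p under 0.05, short black lines are the medians of the lists, and the dashed line is the median of all genes tested at 0.02. Ryr2 at -5.74 is the lowest point of all.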

How the data were processed

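The authors deposited raw read counts per Ensembl gene for each of the 7 libraries. By their naming and layout these come from HTSeq-count (union mode, no strand). The submitters' processing notes give the build mm10, and the aligner and annotation are not given in the sources used here. Libraries came from SMART-Seq cDNA without molecular identifiers, so intervals from counts cover counting error only. Reads on no gene or on several (13.1% to 20.9%) were left out. Without strand, reads on exons where genes on either strand overlap are among those left out. The authors also deposited a table of signal, each count divided by one size factor per library (checked, ratios constant to within 1e-08), from which only the gene symbols were taken. It also holds the authors' own fold changes and p-values under column names of DESeq2, which were not used. The labels give the young age in weeks, and the methods text gives a different one.

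Counts were analysed with edgeR 4.0.16 in R 4.3.3 (TMM, filterByExpr by group, quasi-likelihood test, no covariate). The study names limma, which was an alternative (limma 3.58.1, voom), with DESeq2 1.42.0. Standard errors were taken from the fold change and the F statistic. Lengths, GC content and positions are those of GENCODE M21 (GRCm38), with 47224 of 47729 identifiers matched, and promoters are those of RefSeq, with 8 of 10 members found. The script was tested on simulated data. Members and lists were chosen with earlier results of these data known. Named genes were the members, at most 4 called genes per list (smallest p, log2 CPM averaging at least 1), a set of central pathway genes whatever their result, Foxp3, Il2ra and Cd4, and the 3 most similar genes per called member. Some genes of this rule are not reported here. The alternatives were other normalizations (RLE, library size only), no filter, at least 10 counts in every library, removal of mitochondrial, immunoglobulin and haemoglobin genes, a replicate block, removal of GC and length trends (splines with 5 degrees of freedom), each library left out, and the longest transcript as length.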

Additional observations from a re-analysis of the deposited data

Results flagged for a closer look

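In young Tregs, 45 genes named here were checked for a library far from the other 3, and 2 were found. Chance marks about 1 in 20 such groups, which is close to that number. Orai1 was at 35.5 CPM in young replicate 2, against 26.7 to 28.2 CPM in the other young libraries. Cacnb3 was at 11.8 CPM in young replicate 4, against 6.38 to 6.82 CPM in the others, and all aged libraries were above it, at 26.4 CPM or more.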

How the results depend on the processing

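Ryr2 was called in all 16 alternatives in which it was tested, with log2 fold changes of -6.07 to -5.41 and adjusted p-values up to 0.0167. It was not tested when at least 10 counts were required in every library, which left 1 called member, Orai2. Orai2 was called in 15 of 17 alternatives (-0.66 to -0.57) and lost its call with the replicate number as a block (-0.59, adjusted p = 0.064) and with the block and GC and length trends removed (-0.60, adjusted p = 0.0721). The labels do not say that equal numbers pair the samples. The deviations of same-numbered libraries from their group means correlated at -0.09, -0.29 and -0.14, and no library correlated best with its own number. So few correlations cannot tell whether same-numbered libraries shared a batch. With the block 1 member, 8 pathway genes and 292 of all genes were called, and 1, 6 and 296 with the trends removed as well. DESeq2 called 3804 genes, 45 pathway genes and 4 members, adding Itpr3 (-0.33, adjusted p = 0.0156) and Stim1 (-0.41, adjusted p = 0.0144). Leaving out each library gave 1237 to 3058 called genes, 14 to 40 pathway genes and 2 to 4 members, with Itpr3 between -0.40 and -0.27 and Stim1 between -0.57 and -0.30. Fewest genes were called without young replicate 4, fewest pathway genes without aged replicate 3 and most of both without aged replicate 1.

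Signs of uncalled genes changed in some settings. Stim2 was at -0.00616 with library size only, -0.0109 with trends removed and -0.0331 with trends removed and the block, and between -0.0587 and 0.139 without 1 library. Orai1 was at -0.0248 with trends removed and the block and between -0.00874 and 0.289 without 1 library, and Ryr1 between -0.305 and 0.306. Orai3 was at -0.00911 by voom, -0.00741 without a filter, -0.0659 with library size only, -0.13 with trends removed, -0.111 with the block as well, and between -0.0997 and 0.164 without 1 library. Itpkb was at -0.0549 with library size only, -0.0478 with the block, -0.0169 without a filter and between -0.081 and 0.0699 without 1 library. Cd38 was at 0.0125 with at least 10 counts, 0.00149 with mitochondrial, immunoglobulin and haemoglobin genes left out, 0.0052 with the block and between -0.332 and 0.221 without 1 library. Nfatc2 was at 0.0294 with trends removed, 0.00369 with the block as well and between -0.162 and 0.0341 without 1 library. With the longest transcript as length, the share of Ryr2 in its family in young Tregs was 71.2%, and 6 and 5 members changed place in the young and aged order. The cause of these changes was not tested. With 2 to 5 reads of Ryr2 in an aged library, depth limits how precisely its fold change is known.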

Other observations

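Of the 4 tested genes closest to Ryr2, 2 on each side and named after their values were seen, 2 were called lower in aged Tregs, as were 6.94% of all genes tested. On the side of the Ryr2 start, Mtr, for methionine synthase, lies 75767 bases from Ryr2 and was at 27.5 to 36.2 CPM in aged and 38.7 to 47.5 CPM in young Tregs (log2 fold change -0.48, adjusted p = 0.037 by edgeR). Actn2, for an alpha-actinin of muscle, lies 162481 bases away and was at 1.22 to 3.42 CPM in aged and 4.01 to 5.94 CPM in young Tregs (-1.23, adjusted p = 0.0421). On the other side, Chrm3, a muscarinic receptor gene 1192255 bases away, was at 0.374 to 0.906 CPM in aged and 1.003 to 2.36 CPM in young Tregs (-1.48, adjusted p = 0.0596) and was not called. Gm24187, 1718577 bases away, was not called either (-1.08, adjusted p = 0.653), and its ages overlapped.

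Of the 4 tested genes closest to Orai2, none was called. Sh2b2 was at -0.68 (adjusted p = 0.151), with all aged values below all young ones, and the ages overlapped for Lrwd1 (-0.13, adjusted p = 0.433), Alkbh4 (0.14, adjusted p = 0.409) and Prkrip1 (0.07, adjusted p = 0.789). By edgeR, Sh2b2 alone of these 4 had an unadjusted p under 0.05 (0.049), the 4507th smallest of the 13904 genes tested. Whether the genes around Ryr2 and around Orai2 differ was not tested.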
